A study of Homo sapiens with 6 samples.

Results

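The genes described here encode the translation initiation and elongation factors of the cytosol, measured in MDA-MB-231, an established human cell line from a triple-negative breast cancer. Members were chosen by symbol alone: names that begin with EIF1 to EIF6, EEF1 or EEF2, without the EIF2AK kinases and without pseudogene names. The authors' deposited table held 32 of them among its 7150 genes. EIF4EBP1 and EIF4EBP2 end in the letter and digit of a pseudogene name but are genes of 4E-binding proteins, and they were kept. Without this pair 25 members were higher and 5 lower. RNA of 3 libraries from cells given 0.5 µM shikonin for 24 h was set against 3 libraries from cells labelled as having no treatment. Both groups are labelled wild type (WT), and no vehicle is named in the sources used here. The unit of the dose is written with a small m in the labels and is taken as micromolar.

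Initiation factors bring the small ribosomal subunit, the initiator tRNA and the capped message together, and let the large subunit join at the start codon. Elongation factors then deliver aminoacyl-tRNA to the ribosome and move it along the message. The supply of initiator tRNA is set by phosphorylation of eIF2 and by its exchange factor eIF2B. Access to the cap is set by the 4E-binding proteins, which mTOR phosphorylates. Messages of many elongation factors and of ribosomal proteins start with a terminal oligopyrimidine tract (TOP), a C followed by a run of C and T, through which mTOR and LARP1 govern their translation.

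The file holds 1 comparison and 0 columns of per-sample values, so the value in each library, the overlap of the groups and the depth of the libraries are not known here. The authors' deposited table holds genes with an adjusted p below 0.05 (Benjamini-Hochberg, as DESeq2 gives it) and a fold above 1.5 in either direction. A gene that is not listed was therefore not past these thresholds, not tested or not in the file used here. The header does not say which group is in the numerator: values above 0, which the authors marked "up", are taken to mean higher in shikonin. Whether the 3 libraries of a group are separate cultures is not stated. The p-values therefore measure only the spread between these libraries, which may be technical. For each gene the mean normalized count over the 6 libraries and the fold were solved for an implied mean in shikonin and in control. Among markers of the line, VIM, the intermediate filament gene of mesenchymal cells, had implied means of 81887 normalized counts in shikonin and 46972 in control. FN1 and ZEB1 were lower, and CD44 and AXL were not listed. Of 16 marker names of luminal, leukocyte, endothelial and fibroblast cells, 6 were listed (EPCAM, KRT8, KRT18, CD14, PECAM1 and PDGFRB). All 6 were higher, with summed implied means of 38514 in shikonin and 14355 in control. Most of both sums came from KRT8 (22514 in shikonin, 9454 in control) and KRT18 (13603 and 4278). PECAM1 had 284 in shikonin and 69.3 in control, and PDGFRB had 132 and 68.1. The other 10 names, among them VWF, CDH5, COL1A1 and COL1A2, were not listed. The part of these genes in the results below was not tested.

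Most listed factor genes had higher RNA in shikonin-treated cells, and a smaller group had lower RNA. In the authors' deposited table, 26 of the 32 members were higher and 6 were lower, so 81.3% were higher, beside 50.8% of all listed genes (3630 of 7150). At 2-fold or more, 14 members were higher and 2 lower (87.5% higher), beside 52.9% higher among all genes listed at that size. The authors' deposited table gave the members a median log2 fold change of 0.82 and all its genes one of 0.60. The higher members were EEF1A2, EEF1B2, EEF1G, EEF1D, EEF1A1, EIF5A, EIF1, EIF1B, EIF1AD, EIF6, EIF2S2, EIF2B2, EIF2B4, 8 genes of eIF3, the 3 EIF4A genes, EIF4EBP1 and EEF1E1. The lower members were EIF4G3, EIF4EBP2, EIF3A, EIF4G1, EIF5B and EIF4ENIF1. In these bulk samples a change in the number of cells of a type and a change in RNA per cell cannot be told apart.

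The share of the family that was listed is known only over annotated names, and not over tested genes. The rule finds 67 protein-coding names in GENCODE 29, of which 47.8% were listed. How many of these names were tested is not known here. Over the whole comparison, the adjusted p-values imply about 14247 genes tested, of which 50.2% were listed, 25.5% as higher and 24.7% as lower. The 35 names that were not listed include EEF2, EIF2S1, EIF2S3, EIF4E, EIF4B, EIF4H, EIF4G2 and EIF5. With both groups scaled to the same summed implied mean over listed genes, a shift of 0.39 on the log2 scale, 14 members were higher and 6 lower (70% higher), beside 40.5% of the listed genes still past the fold threshold. Under that scaling the remaining 12 members, EEF1A1, EIF4A1, EIF2S2 and EIF5A among them, kept a positive log2 fold change below the threshold. The shift is smaller than every listed log2 fold change in size, so no listed gene could change sign. Lower genes could not leave, and genes that were not listed could not enter. The 95% interval of the fold, from the standard error in the authors' deposited table, lay wholly beyond 1.5-fold for 16 higher and 5 lower members. It lay wholly beyond 2-fold for 6 members, which were EEF1A2, EEF1B2, EEF1G, EIF1, EIF4G3 and EIF4EBP2.

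**Figure D1:**
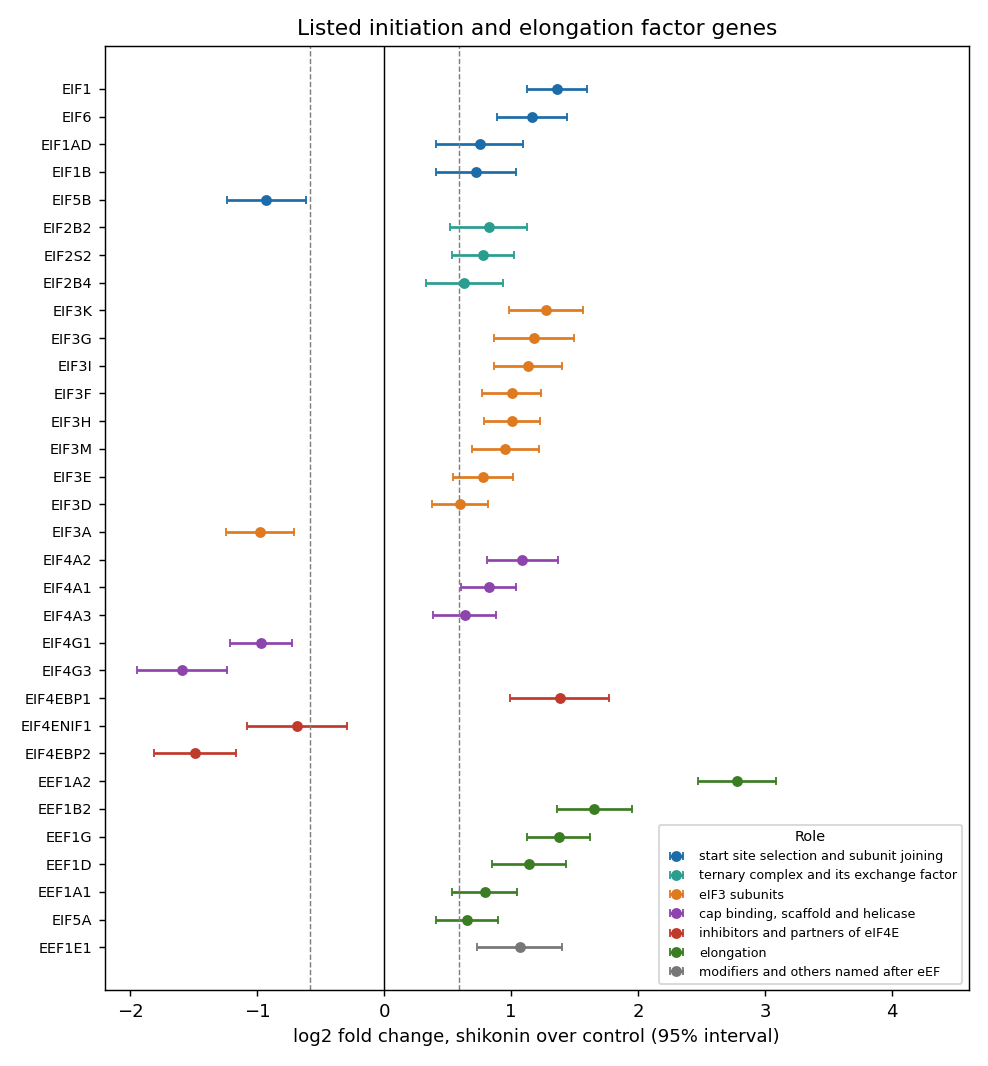
Log2 fold change of the 32 listed members (shikonin over control, from the authors' deposited table), grouped by role. Points are the listed values, bars are 95% intervals from the listed standard errors, and dashed lines mark a 1.5-fold difference. The 6 elongation genes are all to the right of 0 with EEF1A2 farthest at 2.78, while EIF4G3 and EIF4EBP2 lie farthest to the left.

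The starts of these messages are shown because TOP tracts mark part of this family. The sequences are from RefSeq (GRCh38.p14), 10 bases before the annotated start and 20 from it on, 5′ to 3′ on the gene's strand, with the pyrimidine tract that begins exactly at the annotated start in capitals. EIF5B, a member that was lower and has no such tract, is given last for comparison.
EEF1A1, chr6:73521013-73521042, minus strand: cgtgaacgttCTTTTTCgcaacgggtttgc
EEF1B2, chr2:206159885-206159914, plus strand: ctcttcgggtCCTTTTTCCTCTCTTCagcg
EIF3D, chr22:36529147-36529176, minus strand: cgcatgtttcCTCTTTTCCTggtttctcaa
EIF3F, chr11:7987327-7987356, plus strand: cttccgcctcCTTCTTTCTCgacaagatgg
EIF3K, chr19:38619178-38619207, plus strand: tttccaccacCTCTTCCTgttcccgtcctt
EIF3M, chr11:32583821-32583850, plus strand: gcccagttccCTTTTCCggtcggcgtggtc
EIF4A2, chr3:186783567-186783596, plus strand: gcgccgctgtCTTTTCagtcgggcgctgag
EIF5B, chr2:99337379-99337408, plus strand: ctgagaactcacaccatatgtgtcctgttc

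Promoter entries were found for 24 of the 32 members, some with several annotated starts. A gene was counted as holding the tract if any of its starts did. EEF1B2 has another start, at chr2:206159609, without it. A C followed by at least 4 further C or T letters, 5 in all, began exactly at an annotated start in 7 of the 24, or 29.2%. Among all 27305 genes with an entry the share was 5.14%, and among 65 listed ribosomal protein genes it was 69.2%. Of the 5567 listed genes with an entry, 423 held the tract. All 7 members with the tract were higher, beside 257 of those 423 listed genes (60.8%), and the authors' deposited table gave them log2 fold changes of 0.60 to 1.65 (median 1.01). With ribosomal protein genes left out, 212 of 378 listed genes with the tract were higher (56.1%). The 17 members with an entry and no such tract were 12 higher and 5 lower, or 70.6% higher, beside 48.4% of listed genes without it, and their median log2 fold change was 0.73 per the authors' deposited table. With the start allowed to lie up to 5 bases away, the share was 41.7% of the members and 29.2% of listed genes, and it covered 8 of 19 higher and 2 of 5 lower members. Annotated starts can lie some bases from the start used in these cells, which the data do not show.

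Other motifs were searched in RefSeq windows of 300 bases, from 250 before the annotated start to 50 after it, on both strands, and their matches may overlap. The CEBP-ATF response element (TGATGNAA) was found in 0 of the 24 members in 4.46% of all genes and in 2.89% of listed genes. The heat shock element, in which GAA and TTC triplets alternate 3 times with 2 bases between them, was also found in 0 of the members in 0.608% of all genes and in 0.647% of listed genes. The antioxidant response element core (TGACNNNGC) was present in 5 members, or 20.8%, in 16.1% of all genes and in 19.9% of listed genes. The E-box (CACGTG) was likewise present in 5 members (20.8%), in 8.77% of all genes and in 12.4% of listed genes.

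Elongation factor genes were higher throughout the listed group. All 6 listed members were higher, beside 50.8% of all listed genes, while EEF2, EIF5A2 and EIF5AL1 were not listed. EEF1B2, EEF1G and EIF5A fall in a transcript length decile where 96.8% of listed protein-coding genes were higher. In the decile of EEF1A2 and EEF1D the share was 81.4%, and in that of EEF1A1 it was 16.9%. The median log2 fold change of the 6 listed members was 1.25 per the authors' deposited table. EEF1A2 encodes the tissue-restricted form of eEF1A, the factor that brings aminoacyl-tRNA to the ribosome, and is known from neurons and muscle. It lies on chromosome 20 from 63488012 to 63499322 (GRCh38, GENCODE 29). Its implied means were 1284 normalized counts in shikonin and 188 in control. That is a 6.85-fold difference (95% interval 5.53 to 8.47; adjusted p = 1.58e-67, DESeq2) per the authors' deposited table, the largest among the members and place 372 by fold among the 3630 higher genes. EEF1A1, the widely expressed form, lies on chromosome 6 from 73515750 to 73523797. Its implied means were 289801 normalized counts in shikonin and 167598 in control, and its fold was 1.73 (1.45 to 2.06; adjusted p = 4.55e-09, DESeq2) per the authors' deposited table. EEF1A1 made up 52.2% of the summed implied means of the members in both groups.

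EEF1A2 thus had the larger fold of the pair, while EEF1A1 was the far more abundant message in both groups. Per kilobase of principal transcript, the implied level of EEF1A1 was 102 times that of EEF1A2 in shikonin and 405 times in control. With the transcripts of longest coding sequence, it was 80.6 times in shikonin and 319 times in control, so the ratio depends on the transcript chosen. The fold intervals of EEF1A1 and EEF1A2 did not overlap, and the difference itself was not tested, because the table holds no covariance between genes. EEF1A1 has 39 pseudogenes named after it in GENCODE 29, whose reads its own messages can share, so its value is uncertain.

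The exchange complex that reloads eEF1A with GTP had all of its listed subunits higher. EEF1B2 encodes the exchange subunit and had implied means of 10945 normalized counts in shikonin and 3477 in control. Its fold was 3.15 (2.57 to 3.86; adjusted p = 8.61e-27, DESeq2) per the authors' deposited table. EEF1G encodes the structural subunit, with implied means of 52787 normalized counts in shikonin and 20390 in control and a fold of 2.59 (2.18 to 3.08; adjusted p = 8.19e-26, DESeq2) per the authors' deposited table. EEF1G shares 99.9% of its exon bases with the overlapping GENCODE 29 gene AP002990.1 on the same strand, so its count depends on how shared reads were assigned. EEF1D encodes another exchange subunit and has 31.2% of its exon bases overlapped by AC067930.6 on the other strand. It had implied means of 15407 normalized counts in shikonin and 7003 in control. It was 2.20-fold higher (1.80 to 2.69; adjusted p = 1.18e-13, DESeq2) per the authors' deposited table. EIF5A, named as an initiation factor but known for helping the ribosome through difficult peptide bonds, had implied means of 18885 normalized counts in shikonin and 12043 in control. Its fold was 1.57 (1.32 to 1.86; adjusted p = 6.84e-07, DESeq2), the smallest of the 6, in the authors' deposited table. EEF1E1 carries the elongation factor name but encodes a scaffold protein of the multi-synthetase complex (also AIMP3), with implied means of 1785 normalized counts in shikonin and 853 in control. It was 2.09-fold higher (1.66 to 2.64; adjusted p = 1.70e-09, DESeq2) per the authors' deposited table. The kinase gene EEF2K and the EEF1AKMT methyltransferase genes were not listed.

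Subunits of eIF3, the large scaffold that holds the small ribosomal subunit ready for the message, were 8 higher and 1 lower among 9 listed. Of all listed genes, 50.8% were higher. In their length deciles, the share of listed protein-coding genes that were higher was 97.7% (EIF3K), 96.8% (EIF3E, EIF3G, EIF3I) and 81.4% (EIF3D). It was 32.1% for EIF3H, 11.7% for EIF3M and 7.37% for EIF3F and EIF3A. The higher subunit genes spanned log2 fold changes of 0.60 (EIF3D) to 1.28 (EIF3K) per the authors' deposited table. EIF3K had implied means of 4569 normalized counts in shikonin and 1887 in control, a fold of 2.42 (1.98 to 2.96; adjusted p = 8.42e-17, DESeq2) per the authors' deposited table. EIF3G, an RNA-binding subunit, had implied means of 6166 normalized counts in shikonin and 2720 in control and a fold of 2.27 (1.82 to 2.82; adjusted p = 2.01e-12, DESeq2) per the authors' deposited table. EIF3K and EIF3G were thus near each other, and their intervals overlapped.

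EIF3I, a WD-repeat subunit, had implied means of 10500 normalized counts in shikonin and 4791 in control, a fold of 2.19 (1.82 to 2.64; adjusted p = 1.03e-15, DESeq2) per the authors' deposited table. EIF3F and EIF3H encode the pair of subunits with an MPN domain. EIF3F had implied means of 7682 normalized counts in shikonin and 3826 in control, a fold of 2.01 (1.71 to 2.36; adjusted p = 2.33e-16, DESeq2) per the authors' deposited table. EIF3H had implied means of 5942 normalized counts in shikonin and 2961 in control, a fold of 2.01 (1.72 to 2.34; adjusted p = 1.30e-17, DESeq2) per the authors' deposited table. The MPN pair thus had folds that were equal to the digits given. EIF3M and EIF3E, subunits with a PCI domain, were 1.94-fold (1.61 to 2.33) and 1.71-fold (1.46 to 2.02) higher per the authors' deposited table. EIF3D, whose product can itself bind the cap, had implied means of 4784 normalized counts in shikonin and 3164 in control. Its fold of 1.51 (1.30 to 1.76; adjusted p = 3.35e-07, DESeq2) was the smallest among the higher members in the authors' deposited table.

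EIF3A, the largest subunit and the core on which the others assemble, went the other way. It lies on chromosome 10 from 119033670 to 119080823. Its implied means were 3490 normalized counts in shikonin and 6867 in control, 1.97-fold lower (1.64 to 2.37; adjusted p = 4.31e-12, DESeq2) per the authors' deposited table. The other core scaffold genes EIF3B and EIF3C were not listed, nor were EIF3J and EIF3L. Per kilobase of principal transcript, EIF3A had an implied level of 525 normalized counts in shikonin and 1033 in control, while EIF3I stood at 7202 in shikonin and 3286 in control. Levels per kilobase depend on the transcript chosen, and the EIF3F and EIF3M transcripts used here are long (7540 nt and 5051 nt), with 3′ untranslated regions of 5843 nt and 3866 nt.

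Of 12 names of the cap-binding, scaffold and helicase group, 5 were listed. EIF4A1, EIF4A2 and EIF4A3 were higher, with transcripts of 1734 to 1919 nt, and EIF4G1 and EIF4G3 were lower, with transcripts of 5516 and 5802 nt. Of listed protein-coding genes, 91.2% were higher in the length decile of the EIF4A genes and 11.7% in that of the EIF4G genes. The share over all listed genes was 50.8%. EIF4A1 encodes the main helicase that unwinds the message near the cap, and had implied means of 32282 normalized counts in shikonin and 18249 in control. It was 1.77-fold higher (1.52 to 2.06; adjusted p = 1.14e-12, DESeq2) per the authors' deposited table. EIF4A2, its close paralogue, had implied means of 10047 normalized counts in shikonin and 4724 in control and was 2.13-fold higher (1.75 to 2.58; adjusted p = 1.32e-13, DESeq2) per the authors' deposited table. The intervals of both genes overlapped. EIF4A3 encodes a core protein of the exon junction complex rather than an initiation factor, and was 1.55-fold higher (1.30 to 1.84) per the authors' deposited table. EIF4A1 has 13 named pseudogenes and shares 41.1% of its exon bases with AC016876.2 on the same strand, so its value is uncertain.

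EIF4G1 and EIF4G3 encode the scaffolds that join the cap-binding protein to the helicase and to eIF3. EIF4G1 had implied means of 10204 normalized counts in shikonin and 19971 in control, 1.96-fold lower (1.65 to 2.32; adjusted p = 1.18e-13, DESeq2) per the authors' deposited table. EIF4G3 had implied means of 762 normalized counts in shikonin and 2296 in control, 3.01-fold lower (2.36 to 3.85; adjusted p = 1.26e-17, DESeq2) per the authors' deposited table. EIF4G3 was thus the most reduced member, and its interval did not overlap that of EIF4G1 (the difference was not tested). Per kilobase of principal transcript, the implied level of EIF4G1 was 14.1 times that of EIF4G3 in shikonin and 9.15 times in control. EIF4G3 lies on chromosome 1 from 20806292 to 21176888. The third gene of the family, EIF4G2, whose product lacks the cap-binding protein's site, was not listed, and neither was EIF4E.

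The repressors of the cap-binding protein moved in opposite directions. In their length deciles, 97.7% (EIF4EBP1) and 7.37% (EIF4EBP2) of listed protein-coding genes were higher. EIF4EBP1 had implied means of 3285 normalized counts in shikonin and 1261 in control, a fold of 2.61 (1.99 to 3.41; adjusted p = 1.85e-11, DESeq2) per the authors' deposited table. EIF4EBP2 had implied means of 1197 normalized counts in shikonin and 3355 in control, 2.80-fold lower (2.24 to 3.51; adjusted p = 3.43e-18, DESeq2) per the authors' deposited table. Per kilobase of principal transcript, the implied level of EIF4EBP1 was 19.5 times that of EIF4EBP2 in shikonin and 2.67 times in control. The coding lengths of the pair are nearly equal (354 and 360 nt), but the EIF4EBP2 transcript carries a 3′ untranslated region of 6874 nt and that of EIF4EBP1 one of 433 nt. EIF4ENIF1, which encodes the 4E-transporter, a protein that carries eIF4E into the nucleus and acts in repression of messages, had implied means of 212 normalized counts in shikonin and 342 in control. It was 1.61-fold lower (1.23 to 2.12; adjusted p = 0.00142, DESeq2) per the authors' deposited table, with the largest standard error of the members (0.20 on the log2 scale).

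**Figure D2:**
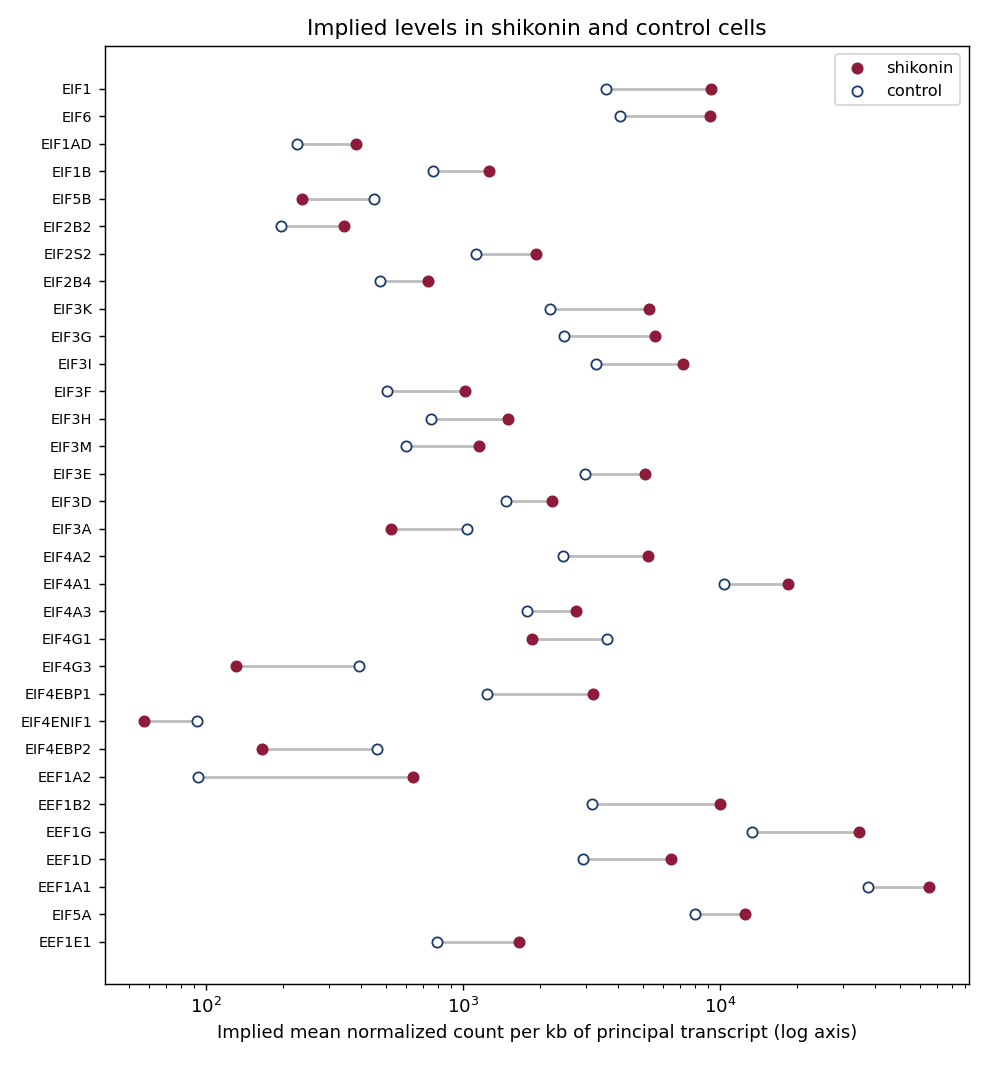
Implied mean normalized count per kilobase of principal transcript for the 32 listed members in shikonin (filled) and control (open), on a log axis. Levels span from 57.4 in shikonin and 92.5 in control for EIF4ENIF1 to 65256 in shikonin and 37739 in control for EEF1A1. The longest lines belong to EEF1A2, EEF1B2, EIF4G3 and EIF4EBP2.

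Start codon selection and subunit joining gave 4 higher members and 1 lower, beside 50.8% higher among all listed genes. In their length deciles, 97.7% (EIF1B), 96.8% (EIF6), 81.4% (EIF1), 63.9% (EIF1AD) and 11.7% (EIF5B) of listed protein-coding genes were higher. EIF1, which keeps the scanning ribosome from starting at wrong codons, had implied means of 21522 normalized counts in shikonin and 8378 in control. It was 2.57-fold higher (2.18 to 3.02; adjusted p = 3.73e-28, DESeq2), the second smallest adjusted p of all members in the authors' deposited table after EEF1A2. Its close paralogue EIF1B had implied means of 1272 normalized counts in shikonin and 770 in control and was 1.65-fold higher (1.33 to 2.06; adjusted p = 1.90e-05, DESeq2) per the authors' deposited table. The intervals of EIF1 and EIF1B did not overlap. EIF6, which keeps the large subunit from joining early and acts in its maturation, had implied means of 11822 normalized counts in shikonin and 5275 in control. It was 2.24-fold higher (1.85 to 2.72; adjusted p = 1.96e-15, DESeq2) per the authors' deposited table. EIF1AD, a relative of eIF1A whose product is found in the nucleus, was 1.68-fold higher (1.33 to 2.13) per the authors' deposited table. EIF5B, the GTPase that joins the large subunit, overlaps REV1 on the other strand over 10.8% of its exon bases and had implied means of 1364 normalized counts in shikonin and 2594 in control. It was 1.90-fold lower (1.54 to 2.36; adjusted p = 1.69e-08, DESeq2) per the authors' deposited table. EIF1AX and EIF5 were not listed.

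The ternary complex and its exchange factor showed small differences. Of 11 names, 3 were listed and all 3 were higher, beside 50.8% of all listed genes. In their length deciles, 91.2% (EIF2B4), 63.9% (EIF2S2) and 16.9% (EIF2B2) of listed protein-coding genes were higher. EIF2S2, the beta subunit of eIF2, had implied means of 5111 normalized counts in shikonin and 2982 in control, a fold of 1.71 (1.45 to 2.03; adjusted p = 2.07e-09, DESeq2) per the authors' deposited table. EIF2B2 and EIF2B4 encode the beta and delta subunits of the regulatory core of eIF2B. A gene on the other strand, AL049780.3, covers 20.2% of the exon bases of EIF2B2, and the strand setting of the counts is not stated. EIF2B2 had implied means of 1491 normalized counts in shikonin and 843 in control and a fold of 1.77 (1.43 to 2.18; adjusted p = 3.57e-07, DESeq2) per the authors' deposited table. EIF2B4 had implied means of 1314 normalized counts in shikonin and 849 in control and a fold of 1.55 (1.25 to 1.91; adjusted p = 0.000131, DESeq2) per the authors' deposited table. The 3 intervals overlapped. The alpha subunit gene EIF2S1, whose product the stress kinases phosphorylate, was not listed. Its kinases and the adaptors of its phosphatase were 2 higher and 3 lower, beside 50.8% higher among all listed genes. In their length deciles, 81.4% (PPP1R15A), 16.9% (EIF2AK3), 11.7% (PPP1R15B and EIF2AK4) and 4.48% (EIF2AK2) of listed protein-coding genes were higher. PPP1R15A, the inducible adaptor that restores eIF2, had implied means of 31506 normalized counts in shikonin and 2428 in control (fold 13.0, 10.3 to 16.4; adjusted p = 4.82e-100, DESeq2) per the authors' deposited table. PPP1R15B, its constitutive counterpart, had implied means of 1137 normalized counts in shikonin and 1982 in control. It was 1.74-fold lower (1.42 to 2.14; adjusted p = 4.03e-07, DESeq2) per the authors' deposited table. EIF2AK3, the kinase PERK of the endoplasmic reticulum, had implied means of 705 normalized counts in shikonin and 426 in control, a fold of 1.66 (1.27 to 2.16; adjusted p = 0.000507, DESeq2) per the authors' deposited table. EIF2AK4, the kinase GCN2 that senses uncharged tRNA, had implied means of 969 normalized counts in shikonin and 2144 in control, 2.21-fold lower (1.81 to 2.71; adjusted p = 1.29e-13, DESeq2) per the authors' deposited table. EIF2AK2, the kinase PKR that senses double-stranded RNA, had implied means of 642 normalized counts in shikonin and 1556 in control, 2.42-fold lower (1.98 to 2.97; adjusted p = 1.32e-16, DESeq2) per the authors' deposited table. EIF2AK1 was not listed.

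Other genes of translation were compared as 6 lists of 48 names, of which 21 were listed, 8 higher and 13 lower. Over the whole comparison, 50.2% of genes were listed, and 50.8% of listed genes were higher. Regulators of initiation and poly(A) binding were 1 higher and 7 lower, and their median log2 fold change was -1.11 per the authors' deposited table. MTOR, the kinase that phosphorylates the 4E-binding proteins, was 3.78-fold lower (2.88 to 4.96) per the authors' deposited table. Its partner RPTOR was 2.92-fold lower (2.20 to 3.89) and its target kinase RPS6KB1 2.26-fold lower (1.73 to 2.95) per the authors' deposited table. LARP1, the binder of TOP messages, was 3.32-fold lower (2.64 to 4.17) per the authors' deposited table. DHX29, a scanning helicase, PABPC4, a poly(A)-binding protein, and PAIP2B, an inhibitor of poly(A)-binding protein, were the other lower genes. MCTS1, a recycling factor, was the only higher gene among the 8 listed in that list, at 2.06-fold (1.68 to 2.53) per the authors' deposited table. MTOR, LARP1, RPTOR and RPS6KB1 have transcripts of 5375 to 8677 nt, in length deciles where 4.48% to 11.7% of listed protein-coding genes were higher. In the decile of MCTS1 (1018 nt) 97.7% were higher, and in that of PABPC4 (3048 nt) 63.9%. The part of length in this split was not tested. DHPS, which starts the hypusine modification of eIF5A, was 2.96-fold higher (2.45 to 3.56), and DPH5, of the diphthamide pathway of eEF2, was 1.55-fold higher (1.20 to 2.01) per the authors' deposited table. The termination factor ETF1 was 1.66-fold higher (1.38 to 2.01), and the recycling ATPase ABCE1 was 1.60-fold lower (1.31 to 1.95) per the authors' deposited table. Of the mitochondrial factors, TUFM and MTIF3 were higher and GFM1 lower, all by less than 2-fold. SECISBP2, of selenocysteine insertion, had a log2 fold change of -0.59 per the authors' deposited table.

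**Figure D3:**
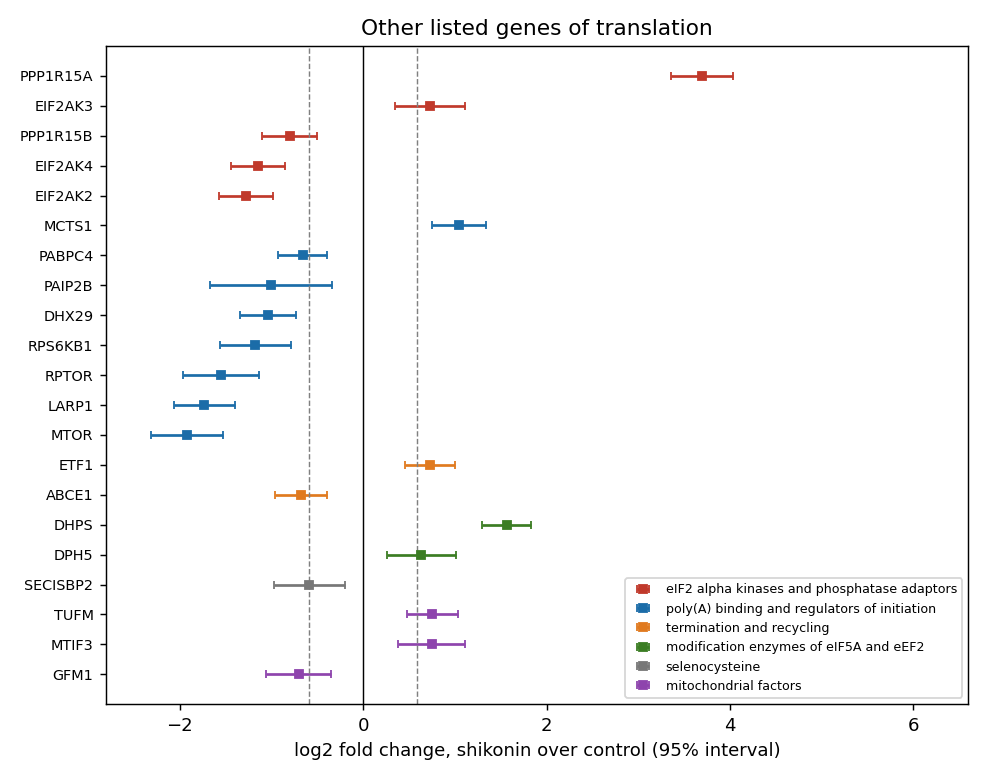
Log2 fold change (shikonin over control, from the authors' deposited table) of 21 other listed genes of translation in 6 lists. Squares are the listed values, bars are 95% intervals and dashed lines mark a 1.5-fold difference. PPP1R15A stands at 3.70, far to the right, while MTOR, LARP1 and RPTOR lie farthest to the left.

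The direction of the members went with the length of their transcripts, as it did for listed genes in general. The 26 higher members had a median mature length of 1774 nt (864 to 7540), and the 6 lower members one of 5790 nt (3695 to 7257). All 6 lower members and 5 of the higher ones were longer than 3500 nt. Spearman's rho of log2 fold change against mature length was -0.57 across the 32 members, beside -0.70 over 6920 listed protein-coding genes. These are descriptions across genes of the same libraries, and genes are not independent replicates. Coding length showed a median of 1055 nt in higher and 3903 nt in lower members, and 5′ untranslated length gave a rho of 0.01. The part of length in the results was not tested.

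Each member was also placed among listed protein-coding genes of its own length decile, where the percentile is that of the log2 fold change. The median percentile of the members was 53.1, and 18 of 32 stood at 50 or above. Several higher members stood below the middle of their decile, among them EIF4EBP1 (41.9), EIF3K (34.8), EIF4A3 (13.7), EIF2B4 (13.6), EIF5A (7.95) and EIF1B (5.35). EEF1A2 (93.4), EEF1B2 (82.7), EEF1A1 (87.4), EIF3F (95.7), EIF3M (92.5) and EIF2B2 (88.2) stood at 82.7 or above in theirs. In the decile of 6139 to 8008 nt, where 7.37% of genes were higher, EIF3F was the higher one of 3 members. In that of 5036 to 6134 nt, where 11.7% were higher, EIF3M was the higher one of 4. Among the lower members, EIF4G3 stood at 13.4 and EIF4EBP2 at 31.6, below the middle of their deciles, while EIF3A (69.5), EIF5B (60.4), EIF4G1 (56.4) and EIF4ENIF1 (54.0) stood above it. The 7 members with a TOP tract ranged from 20.2 (EIF3D) to 95.7 (EIF3F) with a median of 82.7, and EIF3K (34.8) and EIF4A2 (54.9) were also among the lower 3 of them. The 17 without it ranged from 5.35 to 88.2 with a median of 49.7. The transcripts used for length need not begin at the starts that hold the tracts. Those of EIF3F (7540 nt) and EEF1A1 (4441 nt) have 5′ untranslated regions of 626 nt and 992 nt, so their deciles and percentiles are uncertain. EIF3M and EIF2B2 have 3′ untranslated regions of 3866 nt and 3181 nt, so theirs are uncertain too. With transcripts of longest coding sequence, the percentile fell for EIF1 (74.9 to 40.9) and EIF3H (80.3 to 55.2) and rose for EEF1E1 (19.2 to 46.1). The median of the members stayed at 53.1. All 423 listed genes with the tract had a median percentile of 53.0, and listed genes without it 49.0. With ribosomal protein genes left out, the 378 listed genes with the tract had a median percentile of 49.1.

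**Figure D4:**
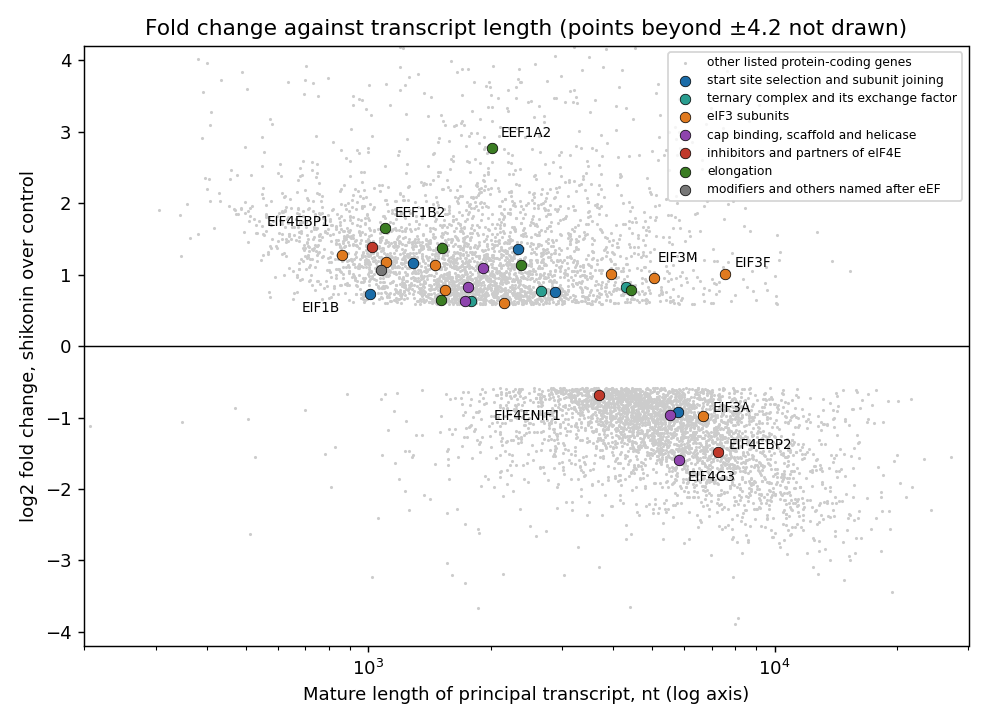
Log2 fold change (shikonin over control) against mature length of the principal transcript (log axis) for the members, coloured by role, over the other listed protein-coding genes in grey. Points beyond 4.2 in either direction are not drawn. The 6 lower members lie between 3695 and 7257 nt, and EIF3F and EIF3M stand out as long transcripts that were higher.

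Ribosomal protein genes, the nearest group in function, had a higher median. The factors had a median log2 fold change of 0.82 and the 81 listed cytosolic ribosomal protein genes, 80 of them higher, one of 1.61 per the authors' deposited table. The 7 listed cytosolic aminoacyl-tRNA synthetase genes were 6 higher and 1 lower, and their median was 0.67 per the authors' deposited table. The groups were not matched for transcript length. In the shortest length decile of listed protein-coding genes (207 to 1086 nt), 97.7% were higher and the median log2 fold change was 1.48. Differences between the factor, ribosomal protein and synthetase groups, and the part of length in them, were not tested. Only listed genes enter each median.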

How the data were processed

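RNA-seq libraries of 3 shikonin and 3 control samples of MDA-MB-231 cells were prepared from total RNA with an NEBNext Ultra kit, per the labels' protocols. Fastp, HISAT2 2.0.5, DESeq2 and hg38 are named in the submitters' processing notes, with the read counter, annotation and strand setting not given in the sources used here. Per the file headers, the authors' deposited table gives for each gene a mean normalized count (a signal over all libraries, scaled by size factors), a log2 fold change with its standard error, a Wald score, and a p-value with its adjusted value. The Wald score of the authors was checked to equal the fold change over its standard error, and the sign matched the direction mark in all 7150 genes. Depth per library is unknown.

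Implied group means were solved from mean and fold with equal weight of 3 and 3 libraries. Intervals at 95% are normal intervals from the deposited standard error. Transcript lengths and positions came from GENCODE 29 (GRCh38; best APPRIS rank, then longest) by Ensembl identifier for 7142 genes; promoter windows came from RefSeq (GRCh38.p14), matched by symbol. How many genes were tested was solved from p, adjusted p and rank at 15 top ranks. Computations used Python 3.11.15 with pandas 2.3.3, NumPy 2.4.6 and SciPy 1.17.1, and were tested on simulated data. Members, role groups and lists were chosen with earlier results of these data known. By rule, members were named as the 2 highest and 2 lowest of each role group, those with the 10 smallest adjusted p, paralogue pairs and eIF2 kinases or phosphatase adaptors; the few others were named so that every listed member is accounted for. The planned count tests could not be run on a table without per-sample values.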

Additional observations from a re-analysis of the deposited data

How the results depend on the processing

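Restricting to genes at least 2-fold changed left 14 higher and 2 lower members (median log2 fold change 1.15), by construction of the threshold. With equal implied totals, 14 members stayed higher past the 1.5-fold threshold and 6 lower (median 0.43), and 12 members fell below it. The log2 shift of 0.39 is smaller than every listed log2 fold change in size, so 0 sign changes were possible. Lower members could only move farther past the threshold, so their unchanged count is also by construction. An adjusted p below 0.001, factor subunits only, and leaving out EIF4EBP1 and EIF4EBP2 (added after seeing the data) kept the higher count between 23 and 26 and the lower count between 4 and 6. A mean of at least 100 normalized counts removed no member, as the lowest member mean was 277 (EIF4ENIF1). The rho with length was -0.42 for coding length and -0.36 for genomic span; the cause was not tested. Under the other length settings it lay between -0.63 and -0.50, and 3 members have transcript definitions that differ by more than 1.5 times. No paired analysis was possible because the table holds no per-sample values; for the same reason leaving out each library and the edgeR and size factor alternatives were not run. Strand is not stated, and 16 members have an exon that overlaps a gene on the other strand, 3 of them (EEF1D, EIF2B2 and EIF5B) over more than 10% of exon bases.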

Other observations

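Listed genes that carry a factor name but fall outside the rule also differed. EIF3FP3, a processed pseudogene of EIF3F on chromosome 2, had implied means of 116 normalized counts in shikonin and 44.6 in control, a fold of 2.60 (1.33 to 5.09) in the authors' deposited table. EIF3F itself was 2.01-fold higher in the authors' deposited table, and reads can be assigned to either. ANKHD1-EIF4EBP3, a readthrough gene on chromosome 5 that ends in the third 4E-binding protein gene, had implied means of 236 normalized counts in shikonin and 698 in control. It was 2.96-fold lower (1.38 to 6.33) per the authors' deposited table, with a standard error of 0.56 on the log2 scale.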
